A study of Caenorhabditis elegans with 43 samples.

Results

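Wild-type Caenorhabditis elegans (strain N2) were compared on either side of the change from the fourth larval stage to young adulthood. The comparison used 6 of the 43 libraries of a time course in 4 strains, chosen by strain and hour from the labels. The earlier window held the N2 libraries of 28, 30 and 32 h (n = 3) and the later window those of 34, 36 and 38 h (n = 3), each hour being 1 library. Hours count growth at 25 °C on Escherichia coli NA22 after synchronised first-stage larvae were released from starvation, and whole worms were lysed for total RNA that was depleted of ribosomal RNA. Every library of the step came from the same unmutated strain, with no agent added. The 5 N2 libraries of 18 to 26 h and the 6 libraries of 28 to 38 h from the strain lin-41(xe11), grown the same way, were used for reference. The labels do not say whether the hours came from separate cultures, and the libraries of a window are different hours, so the error of every comparison here includes change within a window and may be partly technical.

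Between the last larval stage and adulthood the worm builds a new cuticle under the old one, sheds the old one in the last of its molts, and does not molt again. The epidermis and its seam cells leave the larval programme under the heterochronic pathway, in which the let-7 microRNA, the RNA-binding protein LIN-41 and the transcription factor LIN-29 act late. Over the same hours the hermaphrodite germ line ends sperm production and starts to make oocytes, the vulva and uterus complete their form, and the intestine begins to make yolk.

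The 6 libraries held 12.59 to 15.48 M counts assigned to genes, and the table listed 20182 genes. Levels are counts scaled to a library total of 1 M (CPM), and they compare 1 gene between hours, not different genes, because gene length was not divided out. Changes are log2 fold changes of the later over the earlier window ± standard error from edgeR's quasi-likelihood test, with p adjusted by Benjamini and Hochberg over the 13365 genes whose mean was at least 1 CPM. "Rose" and "fell" are used for an adjusted p under 0.05. Whole worms were lysed, so fewer or more cells of a type and less or more RNA per cell cannot be told apart in any value that follows.

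Of the genes tested, 459 (3.43%) rose and 517 (3.87%) fell, 7.30% in all. The rises were larger, with a median of 4.25-fold, than the falls, with a median of 1.73-fold. At least a 2-fold change was seen in 344 of the risen genes (2.57% of those tested) and 168 of the fallen genes (1.26%). The median log2 fold change of all tested genes was -0.04. Of the 459 risen genes, 343 were highest at 38 h, and 453 had stayed under their lowest later value at every hour from 18 to 26 h as well. Of the 517 fallen genes, 268 were highest at 30 h, and 491 had been above their later values at every hour from 18 to 26 h.

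Individual calls lay close to the threshold, with adjusted p from 0.0152 to 0.0498 and a median of 0.0425. They rested on several single libraries: without the 28 h library 1 gene was called, without the 30, 36 or 38 h library none was, and without the 34 h library 164 were, while without the 32 h library 3183 were called. In these fits the unadjusted p was under 0.05 for 2940 to 5372 genes, against 5081 with all libraries. All 976 called genes kept their direction, but they were chosen on these same libraries, so this is no independent support. DESeq2 called 2067 genes higher and 1311 lower, so that 61.2% of its calls were rises against 47% here.

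**Figure D1:**
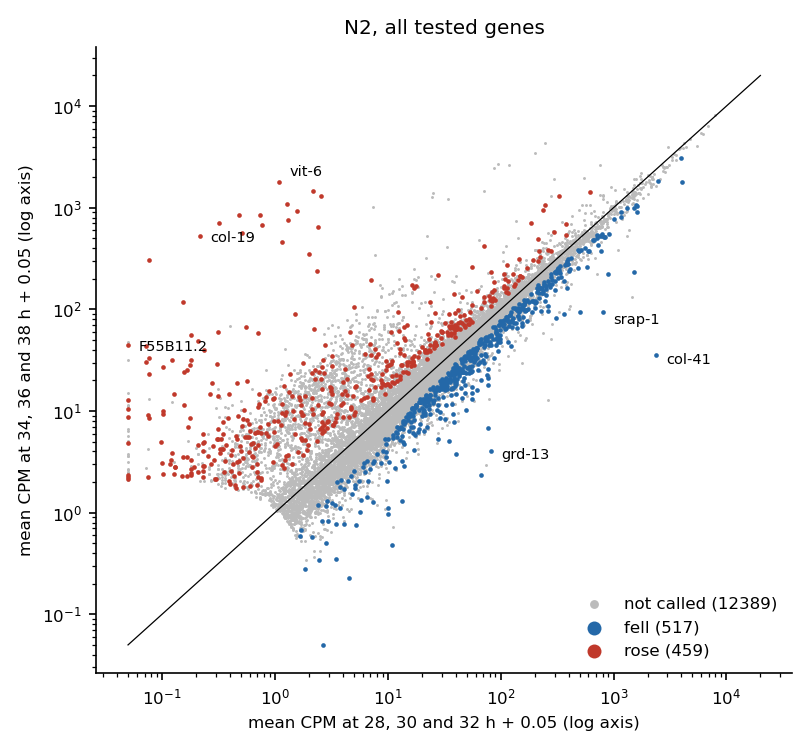
Mean CPM of each tested gene at 34 to 38 h against its mean at 28 to 32 h in N2 (both axes logarithmic, 0.05 added). Red points are the 459 genes that rose and blue points the 517 that fell, and the line marks equal means; risen genes lie far from the line at low starting levels, while most fallen genes lie close under it.

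A stricter description of genes switched on, set after the values were seen, took those under 1 CPM in each earlier library and at 10 CPM or more in each later one. It held for 15 genes (0.112% of those tested), and the reverse held for 0 genes (0%). Of these genes 9 encode collagens, the triple-helical proteins of the cuticle: col-19, col-60, col-88, col-119, col-120, col-122, col-152, col-178 and col-181. The others were perm-4, an eggshell gene, oac-10, ttr-34, F53H4.2, F55B11.2 and R03G8.6. F55B11.2 had 0 counts at 28 to 32 h and 1937 at 34 to 38 h, at least 614-fold higher against a floor of 3 counts over the window. No gene that was at 10 CPM or more in every earlier library was under 1 CPM in every later one, so falls were reductions and not losses by this description.

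col-19, the standard marker of the adult cuticle, stood at 0.194, 0.153 and 0.159 CPM at 28, 30 and 32 h and at 51.7, 302 and 1222 CPM at 34, 36 and 38 h. Its windows did not overlap, each later hour was higher than the one before, and its log2 fold change was 11.52 ± 1.69 (edgeR adjusted p = 0.0402). col-88 went from 0.194, 0.305 and 0.318 CPM to 293, 804 and 1047 CPM, a log2 fold change of 11.33 ± 0.74 (adjusted p = 0.0276). col-60 and col-120 had the smallest adjusted p of all genes, 0.0152 for both. col-60 read 0.452, 0.991 and 0.636 CPM before and 462, 936 and 1124 CPM after, and col-120 read 0.84, 0.763 and 0.556 CPM before and 373, 756 and 896 CPM after. col-60, col-88 and col-120 were under 1 CPM at 28 to 32 h and over 100 CPM in each later library, while col-19 passed 100 CPM from 36 h. col-119 had 1 count over the 3 earlier libraries and 13407 over the later ones, a ratio of 12741 (95% exact interval 2286 to 503274, counting error only).

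The numbered collagen family as a whole moved in both directions. Of its 156 genes in the table, 126 passed the filter, 25 rose, 7 fell and 94 were not called. Of those tested 25.4% were called, against 7.3% of all tested genes. The median log2 fold change was 0.64 against -0.04 for all tested genes. The family took 2.69, 2.93 and 1.76% of all counts at 28, 30 and 32 h and 3.36, 4.81 and 5.82% at 34, 36 and 38 h. The risen genes fell into separate kinds. In 21 of them every library from 18 to 32 h was under 5 CPM, and they passed the filter through the later window alone. Together these 21 genes summed to 15.6, 17.8 and 20.3 CPM before and to 2736, 9087 and 23089 CPM after, and 20 of them were higher at each successive hour from 34 to 38 h. col-129 read 2.26, 2.59 and 1.51 CPM before and 194, 1078 and 3137 CPM after. col-124, at 1.03, 1.53 and 4.93 CPM, went to 257, 911 and 2765 CPM. The other 4, col-48, col-97, col-104 and col-109, were over 100 CPM at each earlier hour, with log2 fold changes from 1.95 to 2.11. col-104 went from 389, 409.9 and 182 CPM to 1154, 1538 and 1246 CPM (log2 2 ± 0.33, adjusted p = 0.0402). Reads shared between near-identical collagens may be split among them, since the labels do not give the counting rule.

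The 7 collagens that fell were col-10, col-41, col-125, col-144, col-166, col-167 and col-169, and 4 of them lie on chromosome X, where 22 of the 126 tested members lie. col-41 had the largest called fall among genes with a mean of at least 10 CPM in the earlier window, from 4277, 2627 and 249.6 CPM to 47.1, 32.3 and 26.2 CPM (log2 -6.08 ± 1.11, adjusted p = 0.0426). Its fall had begun by 32 h. col-166 fell from 1146, 1879 and 1493 CPM to 311, 205 and 176 CPM (log2 -2.71 ± 0.29), and col-169 from 386, 630 and 510.1 CPM to 131, 81.7 and 72.8 CPM (log2 -2.42 ± 0.30). Both changed between 32 and 34 h, later than col-41. col-125 fell by 1.15 ± 0.24 on the log2 scale, from 3789, 5142 and 3075 CPM to 1394, 1945 and 2065 CPM, the smallest fall of the 7.

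Struts, the pillars that join the layers of the adult cuticle, are made with BLI-1 and BLI-2, and ROL-1 is another collagen of the adult. These genes started before the boundary of the windows. bli-1 stood at 1.68, 21.7 and 810.1 CPM and then at 1873, 1489 and 512 CPM, so its windows overlapped and it was not called (adjusted p = 0.422). bli-2 followed the same course, with 19.6, 12.7 and 379 CPM and then 1001, 898 and 323 CPM (adjusted p = 0.244). rol-1 read 1.68, 0.763 and 71 CPM before and 1122, 1429.9 and 1258 CPM after, with no overlap and an adjusted p of 0.0827. The collagens that were under 25 CPM at 28 and 30 h, over 50 CPM at 32 h and over 300 CPM at each later hour numbered 9, a description set after the values were seen. They were bli-1, bli-2, rol-1, col-38, col-49, col-63, col-71, col-138 and col-175. Their summed level was 78.0, 78.5 and 2984 CPM before and 18200.1, 20697 and 15171 CPM after, highest at 36 h, whereas the sum of the 21 later-starting collagens was highest at 38 h. col-38 read 21.1, 18.2 and 708 CPM before and 4414, 5029 and 3656 CPM after. With all 6 libraries 0 of the 9 passed the test. Of the adult markers, col-7 had 0 counts in all 6 libraries, which allows up to 0.0355 CPM by counting error alone. The counting rule is not given, so whether reads could be assigned to this gene is not known.

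**Figure D2:**
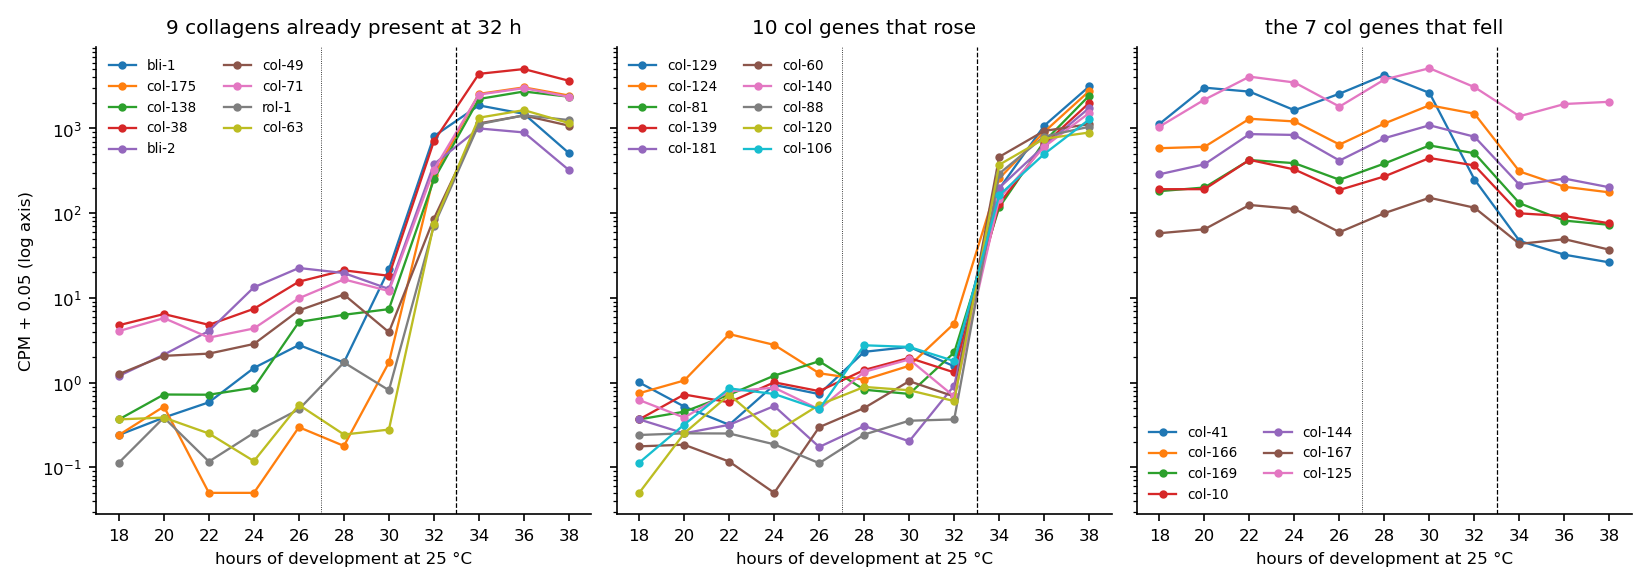
CPM (logarithmic axis, 0.05 added) by hour in the 11 N2 libraries for the 9 collagens already present at 32 h, 10 col genes that rose (those with the highest mean at 34 to 38 h among the 21 that were under 5 CPM before) and the 7 that fell. The dashed line marks the boundary between the windows at 28 to 32 h and 34 to 38 h. The dotted line marks the start of the earlier window. The left set has climbed by 32 h and is lower at 38 h than at 36 h. In it bli-1 and bli-2 are highest at 34 h. The middle set climbs from 34 h and is still rising at 38 h.

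Collagens built into every larval cuticle were high and low within both windows. None of the 6 annular furrow collagens, none of the 10 body-shape collagens and none of the 22 molting regulators tested was called. With 7.3% of all tested genes called, few or no calls would be due in lists this short, so this does not set them apart. The furrow collagens dpy-2, dpy-3, dpy-7, dpy-8, dpy-9 and dpy-10 summed to 1027, 297 and 1443 CPM before and 1631, 735 and 193 CPM after, high on both sides of the boundary and low at 30 and at 38 h. dpy-7 itself went 207, 80.8 and 311 CPM and then 310.1, 144 and 37 CPM. mlt-11, a protease inhibitor needed for molting, had the same shape, 1268, 414 and 1767 CPM and then 2104, 989.9 and 304 CPM. For genes with this course the window means hide the change, as the spread within a window was larger than the difference between windows. dpy-18, the catalytic subunit of the collagen prolyl hydroxylase, was the 1 called gene among 11 of collagen processing, 9.09% against 7.3% of all tested genes. It read 423, 324 and 396 CPM and then 667, 800 and 599.7 CPM (log2 0.85 ± 0.15, adjusted p = 0.0425).

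The larval surface genes that fell included dpy-1 and 3 hedgehog-related genes. dpy-1, named for its dumpy mutants, stood at 103, 85.3 and 12.6 CPM before and 2.73, 1.98 and 2.25 CPM after (log2 -4.85 ± 0.84, adjusted p = 0.0422). Secreted proteins related to hedgehog are made by the worm epidermis in large numbers. Of 40 tested 2 rose and 3 fell, 12.5% called against 7.3% of all tested genes, with a median of 0.47. With no overlap between windows, 7 were higher later and 7 lower, against 23.2% and 24.4% of all tested genes. grd-13 fell from 70.2, 115 and 61.2 CPM to 6.85, 2.64 and 2.45 CPM (log2 -4.36 ± 0.52, adjusted p = 0.0392). grd-10 fell from 64, 101 and 66 CPM to 9.71, 2.71 and 7.64 CPM (log2 -3.52 ± 0.50), and grl-6, at under 5 CPM from 28 h on, fell by 3.47 ± 0.62. In grd-13 and grd-10 every library from 18 to 32 h was above every later one, while levels varied within the earlier hours, and dpy-1 had dropped already at 32 h. wrt-6 rose from 106, 33.2 and 76.0 CPM to 471, 501 and 297 CPM (log2 2.56 ± 0.46), and grl-22 rose by 1.53 ± 0.31. Of 23 patched-related genes, which encode membrane proteins like the hedgehog receptor, 0 rose and ptr-8, ptr-12 and ptr-13 fell. These were 13% of the family, against 7.3% of all tested genes called. ptr-8 went from 39.2, 58.9 and 47.3 CPM to 11.6, 12.6 and 20.5 CPM (log2 -1.70 ± 0.28, adjusted p = 0.0402).

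Other large falls were in genes of no list. srap-1 fell from 831, 1005 and 595 CPM to 120.1, 72.6 and 92.9 CPM (log2 -3.09 ± 0.28, adjusted p = 0.0374). ham-1, needed for asymmetric divisions of neuroblasts, fell from 12.2, 17.4 and 10.3 CPM to 2.06, 0.88 and 0.818 CPM (log2 -3.39 ± 0.45). C29F3.3, F18E9.3 and Y39G8B.10, which carry no gene name, fell by 4.62 ± 0.49, 3.42 ± 0.65 and 3.24 ± 0.38 on the log2 scale. snpc-1.3, a factor for piRNA transcription in the male germ line, fell from 13.2, 10.4 and 6.67 CPM to 1.4, 1.03 and 0.341 CPM (log2 -3.45 ± 0.55). Of the epidermal list, let-413, the worm's Scribble, fell by 0.54 ± 0.08. grd-10 was the other of the 2 that fell among 18 tested, with 0 that rose. These were 11.1% of the list, against 7.3% of all tested genes called.

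Of 19 heterochronic genes tested, 0 rose and 5 fell, against 3.87% of all genes that fell, and the median was -0.53. With a linear trend over the hours 1 rose and 5 fell. daf-12, the nuclear receptor for dafachronic acids, went from 45.9, 38 and 36.5 CPM to 23.3, 16.4 and 15.5 CPM (log2 -1.12 ± 0.20, adjusted p = 0.0425), after reaching 242 CPM in the 18 to 26 h libraries. lin-14, the transcription factor of the first larval stages, fell from 33.8, 35.4 and 26.9 CPM to 16.8, 19.4 and 18.1 CPM (log2 -0.82 ± 0.14). The other falls included microRNA machinery. alg-2, a microRNA Argonaute, fell by 0.66 ± 0.08 and ain-1, its GW182-type partner, by 0.79 ± 0.10. lin-66, another gene of the heterochronic list, fell by 0.64 ± 0.13. hbl-1, the Hunchback homologue, read 23.9, 20.3 and 22.2 CPM and then 11.4, 7.12 and 3.75 CPM without passing the threshold (adjusted p = 0.0598). lin-46 read 16.6, 9.76 and 3.81 CPM and then 2.39, 2.05 and 2.86 CPM (adjusted p = 0.0643). lin-28, an RNA-binding protein of the early larval programme, was higher in every later library, at 14.1, 18 and 18.7 CPM and then 20.6, 23.9 and 27.3 CPM (adjusted p = 0.0967). lin-41 stood at 45, 38.7 and 28.0 CPM and then at 27.7, 35.4 and 75.6 CPM, lowest at 32 and 34 h and highest at 38 h (adjusted p = 0.61), below the 233 CPM it reached between 18 and 26 h. lin-29 went 37.7, 28.6 and 36.2 CPM and then 35.4, 20.7 and 14.8 CPM (adjusted p = 0.285). Outside the list, and chosen after their values were seen, daf-9, which makes the ligand of DAF-12, fell by 2.39 ± 0.40 and lin-22, a Hairy-related regulator of seam cells, by 2.59 ± 0.33.

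The largest family of transcription factors, the nuclear hormone receptors, had 174 tested genes, of which 1 rose and 13 fell. In total 8.05% were called, near the 7.3% of all tested genes, of which 3.43% rose and 3.87% fell. In 100 of the 174 every later library was below every earlier one, against 24.4% of all tested genes, and the median was -0.51. nhr-85, which acts in the timing of molts and of early microRNA transcription, fell from 44.5, 45.1 and 30.7 CPM to 13.5, 14.6 and 15.7 CPM (log2 -1.46 ± 0.18, adjusted p = 0.0392). nhr-25, an epidermal and molting regulator, went from 41.2, 32.0 and 10.1 CPM to 6.12, 6.02 and 5.80 CPM with an adjusted p of 0.054. Of 36 homeobox genes of the ceh series 2 fell and 0 rose, 5.56% called against 7.3% of all tested genes. ceh-20, a Pbx homologue, was down by 0.94 ± 0.15.

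The vit genes, which encode the yolk proteins, were highest at 38 h. vit-6 stood at 0.0646, 1.22 and 1.83 CPM and then at 80.0, 877 and 4421 CPM (log2 10.78 ± 2.06, adjusted p = 0.0436). vit-2 read 0.582, 4.12 and 17.3 CPM before and 103, 502 and 2423 CPM after, with no overlap but an adjusted p of 0.0597 (log2 7.11 ± 1.80). vit-1 was the earliest, at 2.78, 10.4 and 37.5 CPM before and 64.2, 149 and 541 CPM after (adjusted p = 0.0828). vit-5 had 0 counts before and 2079 after, at least 659-fold higher against a floor of 3 counts over the window, and vit-3 was at least 117-fold higher on the same floor. Neither passed the test (adjusted p = 0.109 and 0.0967), and reads of the near-identical vit-3, vit-4 and vit-5 may be split among them. rme-2, the oocyte receptor that takes up yolk, rose from 11.3, 14.1 and 26.1 CPM to 71, 126 and 292 CPM (log2 3.25 ± 0.63, adjusted p = 0.0449). unc-62, a Meis factor that acts on vit genes in the adult intestine, fell by 0.59 ± 0.11. In all, 2 of the 10 yolk genes rose and 1 fell, against 3.43% and 3.87% of all tested genes. Their median was 5.51, or 5.39 with the vit-3 and vit-5 changes at their bounds. Without the 38 h library the median was 3.8 and none was called, with limma on the deposited values it was 3.03 with 4 rises, and DESeq2 called 7 rises.

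**Figure D3:**
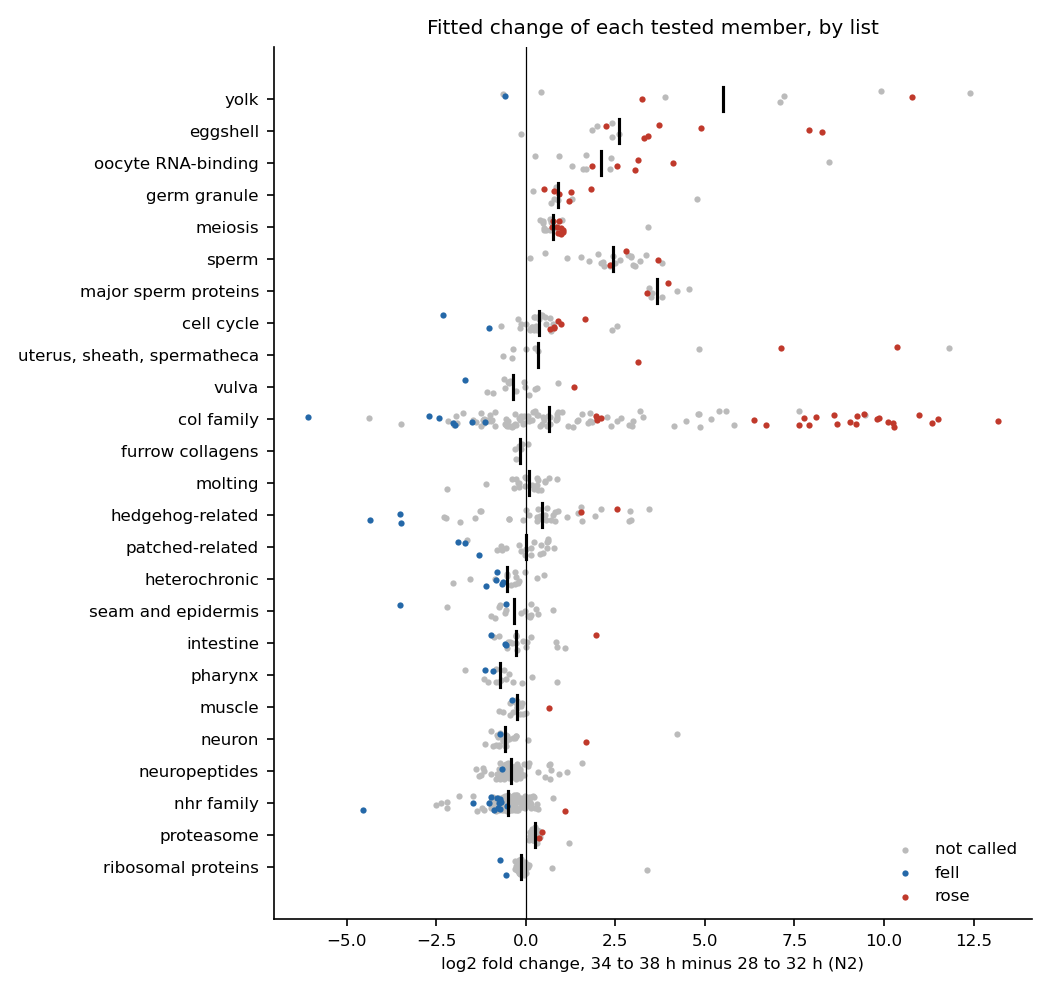
Fitted log2 fold change of each tested gene in 25 lists (one point a gene, jittered vertically; black bars are list medians). Red points rose, blue points fell and grey points were not called; lists of oocyte, eggshell, germ-line and sperm genes sit to the right of 0, and pharynx, neuron and nuclear hormone receptor lists mostly to the left.

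Genes for the eggshell and for fertilisation were higher after the step. Of 13 tested, 7 rose and 0 fell, against 3.43% of all genes that rose, and in 12 the windows did not overlap, against 23.2% of all genes that were higher in this sense. perm-4, a protein of the permeability barrier around the embryo, read 0, 0 and 0.477 CPM before and 13.4, 34.5 and 97.6 CPM after (log2 8.27 ± 1.35, adjusted p = 0.0402), and perm-2 went from 0, 0 and 0.397 CPM to 8.18, 19.4 and 67.7 CPM. These were off to 30 h. cpg-1, a chondroitin proteoglycan of the eggshell, was already present, at 10.9, 13.8 and 24.2 CPM, and rose to 84.5, 123 and 308 CPM (log2 3.40 ± 0.61). cpg-2, its partner, rose by 3.29 ± 0.61 and cpg-3 by 4.88 ± 0.80. egg-1, a surface protein of the oocyte needed for sperm entry, rose by 3.71 ± 0.66, and chs-1, the chitin synthase of the eggshell, by 2.24 ± 0.43. cbd-1, which anchors the vitelline layer, stood at 109, 129 and 184 CPM before and 310.2, 425 and 779.5 CPM after, at an adjusted p of 0.05 to 3 digits that was not under the threshold.

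Regulators of maternal RNA were mostly higher too, with no overlap between windows in 13 of 14, against 23.2% of all genes. Of these oocyte RNA-binding genes 5 rose and 0 fell, against 3.43% and 3.87% of all genes, with a median of 2.11. puf-5 read 1.16, 0.839 and 3.18 CPM before and 10.1, 21.9 and 57.8 CPM after (log2 4.12 ± 0.86, adjusted p = 0.0484), and puf-3 and puf-11, also Pumilio-family repressors, rose by 3.04 ± 0.54 and 2.54 ± 0.45. pos-1, a zinc-finger protein of the early embryo, rose by 3.12 ± 0.61. gld-1, which holds maternal messages silent in meiotic germ cells, rose from 58.2 CPM or less at each earlier hour to 103, 139 and 182 CPM (log2 1.86 ± 0.37). glp-1, the Notch receptor of germ-line stem cells, was level at 95.8, 81.5 and 77.2 CPM and then 93.5, 88 and 123 CPM (adjusted p = 0.277). The germ-line Y-box genes cey-2 and cey-3, named after their values were seen, rose by 2.22 ± 0.41 and 1.5 ± 0.30.

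Germ-line genes that were already expressed showed smaller changes. Of 24 meiosis genes 9 rose, against 3.43% of all genes, 0 fell, and 24 were higher with no overlap, against 23.2% of all genes, with a median of 0.77. syp-1, of the synaptonemal complex, went from 38, 44.5 and 48.9 CPM to 81.3, 83.6 and 94.2 CPM (log2 0.98 ± 0.12, adjusted p = 0.0392). The other risers were syp-2, syp-3, syp-4, the axis genes htp-1, htp-2 and him-3, the pairing-centre gene zim-3 and the envelope gene sun-1, with changes from 0.72 ± 0.14 in htp-1 to 1.05 ± 0.20 in sun-1. Germ granule genes gave 6 rises and 0 falls of 13, against 3.43% and 3.87% of all tested genes, though with TMM scaling 2 rose. All 13 were higher with no overlap, against 23.2% of all genes. csr-1, an Argonaute, went from 179, 215 and 256 CPM to 336, 383 and 415 CPM (log2 0.80 ± 0.16), and cgh-1, an RNA helicase that protects maternal messages, from 184, 199 and 261 CPM to 355, 478 and 651 CPM (log2 1.20 ± 0.25). wago-4 had the largest called change of the list, 1.81 ± 0.33.

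Sperm genes were higher at each hour of the earlier window in sum. The 26 sperm genes in the table summed to 73.7, 144 and 349 CPM before and to 791, 769.9 and 818 CPM after. Of 25 tested, 23 were higher with no overlap, against 23.2% of all genes, yet 3 rose, spe-15 and spe-51 among them, against 3.43%. spe-15, a myosin, went from 13.4, 16 and 41.1 CPM to 107, 125 and 125 CPM (log2 2.34 ± 0.45, adjusted p = 0.0448). spe-11, a sperm protein needed by the embryo, read 0.969, 5.57 and 24.2 CPM before and 126, 126 and 171 CPM after (adjusted p = 0.0679). The major sperm proteins, which drive sperm movement and signal to oocytes, summed to 0.646, 2.36 and 17.5 CPM before and 70.7 CPM or more at each later hour, and 8 of 30 passed the filter. Of these msp-40 and msp-50 rose, 25% of those tested against 3.43% of all tested genes. The filter used the mean of the 6 libraries, so with low earlier levels the 8 passed mainly through the later window. Their direction is therefore no separate finding, and reads of these near-identical genes may be split. fog-1, which directs germ cells to the sperm fate, fell from 36.2, 32.0 and 19.5 CPM to 8.05, 7.26 and 9.89 CPM (log2 -1.80 ± 0.27, adjusted p = 0.0402), and was named after its values were seen. The summed eggshell list, by contrast, went on from 687 CPM at 34 h to 1001 and 2091 CPM at 36 and 38 h.

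Of 34 cell-cycle genes tested, 6 rose and 2 fell, against 3.43% and 3.87% of all tested genes. In 21 every later library was above every earlier one and in 3 below, against 23.2% and 24.4% of all tested genes. The falls were cyd-1, cyclin D, from 11.4, 9.23 and 8.98 CPM to 3.19, 1.69 and 1.09 CPM (log2 -2.30 ± 0.42, adjusted p = 0.0425), and its kinase cdk-4, from 7.11, 6.94 and 5.4 CPM to 3.13, 3.3 and 3.14 CPM (log2 -1.02 ± 0.19). These act at entry into the cycle. The rises were cyb-1, air-1, air-2, bub-1, fzy-1 and wee-1.3, which act in mitosis and meiosis. cyb-1, a B cyclin, rose from 18.9, 22.9 and 30.2 CPM to 64.3, 71 and 91.9 CPM (log2 1.66 ± 0.22, adjusted p = 0.0402). Of 21 histone genes his-1 fell by 1.65 ± 0.27 and 0 rose, 4.76% called against 7.3% of all tested genes. Histone copies are of near-identical sequence.

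In the reproductive tract 3 of 11 uterine, sheath and spermathecal genes rose and 0 fell, against 3.43% and 3.87% of all tested genes. ule-4, a uterine lumen protein, read 0, 0.0763 and 1.43 CPM before and 35.0, 80.0 and 86.8 CPM after (log2 7.12 ± 1.12, adjusted p = 0.0402). ule-3 had 1 count before and 1878 after, a ratio of 1785 (95% exact interval 319.9 to 70529, counting error only), and sth-1, of the spermatheca, rose by 3.12 ± 0.51. tdc-1, the tyrosine decarboxylase of a few neurons and uterine and sheath cells, rose from 14.1, 10.6 and 13.6 CPM to 27.5, 34.3 and 61.0 CPM (log2 1.68 ± 0.33). Of 16 vulval genes 12.5% were called, against 7.3% of all tested genes. lin-12, a Notch receptor, fell from 77.3, 55.2 and 35.2 CPM to 21.2, 15 and 15.3 CPM (log2 -1.70 ± 0.32, adjusted p = 0.0428), and its ligand apx-1 rose by 1.36 ± 0.22.

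Of 22 intestinal genes other than yolk 1 rose and 3 fell, against 3.43% and 3.87% of all genes, with a median of -0.28. With a linear trend over the hours 0 rose and 1 fell. pept-1, the dipeptide transporter of the gut lumen, fell from 267, 318 and 323 CPM to 171, 130.5 and 162 CPM (log2 -0.97 ± 0.14, adjusted p = 0.0402), and pho-1, an acid phosphatase, and nhx-2, a proton exchanger, fell by 0.54 ± 0.07 and 0.59 ± 0.10. fat-5, a desaturase, rose from 14.8, 11.4 and 9.93 CPM to 57.7, 30.0 and 53.3 CPM (log2 1.96 ± 0.30). Of 94 C-type lectins 4 rose and 6 fell, 10.6% called against 7.3% of all tested genes. clec-87 went up from 2.39, 3.05 and 2.70 CPM to 16.4, 36.6 and 81.1 CPM. clec-265 went down from 190, 233 and 258 CPM to 93.3, 112 and 83.3 CPM. Of 48 transthyretin-related genes 4 rose and 1 fell, 10.4% called against the same 7.3%. ttr-14 was the steepest, from 0.129, 0.0763 and 5.64 CPM to 189.8, 365 and 491 CPM (log2 7.52 ± 1.45, adjusted p = 0.0445). Of 16 heat shock genes tested 1 rose, by at least 2-fold, and 2 fell, 18.8% called against 7.3% of all tested genes. The mitochondrial chaperones hsp-6 and hsp-60 fell by 0.51 ± 0.07 and 0.40 ± 0.07. Named after their values were seen, adh-1, an alcohol dehydrogenase, fell by 2.27 ± 0.17 and cbs-1, of cysteine synthesis, by 1.44 ± 0.17.

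Pharynx, muscle and neuron genes took a smaller share of the RNA after the step, with few calls. The pharynx list summed to 1833, 1689 and 1421 CPM before and 1376, 1132 and 1008 CPM after. In it 2 of 16 fell with 0 rises, 12.5% called against 7.3% of all tested genes. myo-2, the pharyngeal myosin, fell from 475, 516 and 453 CPM to 309, 238 and 217 CPM (log2 -0.92 ± 0.15, adjusted p = 0.0402), and pha-4, the organ's identity factor, fell by 1.13 ± 0.23. In muscle 1 of 20 rose, act-2 by 0.64 ± 0.11, and 1 fell, mlc-1 by 0.39 ± 0.07, 10% called against the same 7.3%. In 15 of the 20 every later library was below every earlier one, against 24.4% of all tested genes. unc-54, the body-wall myosin, read 6021, 6715 and 6051 CPM and then 5035, 5534 and 5188 CPM (adjusted p = 0.0795). Of 29 neuronal genes 1 rose, tdc-1, and 1 fell, unc-64, the syntaxin, by 0.71 ± 0.12, 6.9% called against 7.3% of all genes. Of the 29, 20 were lower with no overlap, against the same 24.4% of all genes. Shares of a library are relative, so such small drops stand beside the larger share of germ-line and collagen genes, whose part in them was not tested.

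Of 76 cytoplasmic ribosomal protein genes 0 rose and 2 fell, rpl-11.2 and rpl-25.1, both on chromosome X. These were 2.63% of the family, against 7.3% of all tested genes called. rpl-25.1 fell from 883, 858 and 765 CPM to 557, 490.2 and 484 CPM (log2 -0.71 ± 0.10, adjusted p = 0.0402) and rpl-11.2 from 1517, 1615 and 1569 CPM to 1122, 1159 and 919 CPM (log2 -0.55 ± 0.11). rpl-11.1, the copy on chromosome V, went the other way, from 656, 789.7 and 974 CPM to 1150.5, 1409 and 1487 CPM (adjusted p = 0.0556). How reads were divided between these paralogues is not known. Of 33 proteasome genes 2 rose, rpn-10 by 0.37 ± 0.07 and rpn-12 by 0.44 ± 0.08, a share of 6.06% against 3.43% of all genes. In 30 every later library was above every earlier one, against 23.2% of all genes.

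Chromosome X had the highest share of falls among the 6 chromosomes. Of 1809 tested genes on X, 43 (2.38%) rose and 151 (8.35%) fell, with a median of -0.36. On the autosomes 2.52 to 3.89% of tested genes fell and medians ran from -0.10 to 0.04. Chromosome IV had the highest share of rises, 4.84%. Germ-line lists rose over the same hours, and their part in the X share was not tested.

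**Figure D4:**
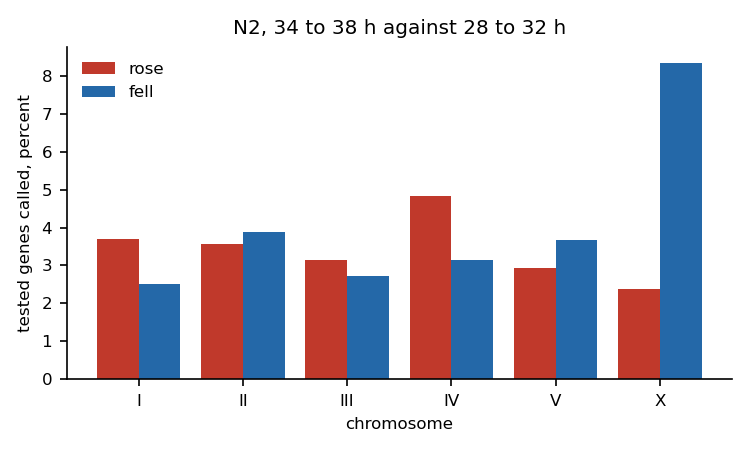
Share of the tested genes of each chromosome that rose (red) or fell (blue) between the windows in N2, in percent. The blue bar of X, 8.35%, stands above those of the autosomes, which reach 3.89%.

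The same step in lin-41(xe11) was set beside that of N2. This allele changes the let-7 sites of lin-41 so that let-7 no longer represses it well. Over 13361 genes tested for a difference between the steps, 0 (0%) passed the threshold in edgeR, with 187 at an unadjusted p under 0.05. Libraries of the same hour in the strains deviated together, so the hour pairs them. With the hour as a block 10 genes passed, 4 with a more positive step in N2 and 6 with a more negative one, and DESeq2 called 3.

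Of the 10, 6 encode collagens, col-41, col-54, col-106, col-120, col-156 and col-184. col-41, which ended near 26.2 CPM in N2, read 4537, 1750.3 and 484 CPM and then 2096, 3261 and 1353 CPM in lin-41(xe11). The strains were less than 2-fold apart at each hour to 32 h, and from 34 h the gene was lower still in N2 and higher again in the mutant. dpy-1 did likewise, with 128, 65.4 and 7.95 CPM and then 26, 71.9 and 38.9 CPM in the mutant against 2.73, 1.98 and 2.25 CPM at the later hours in N2. nhr-25 read 17.3, 17.4 and 12.9 CPM at 34, 36 and 38 h in the mutant and 6.12, 6.02 and 5.80 CPM in N2. The opposite held for col-106, which rose in N2 to 163, 499.6 and 1277 CPM and in the mutant read 6.04, 28.2 and 69.2 CPM at the same hours. col-120 read 12.6, 51 and 64.6 CPM in the mutant against 373, 756 and 896 CPM in N2. The step differed by -5.79 ± 0.43 in col-41 (N2 minus mutant, blocked edgeR adjusted p = 0.00152, and by -6.07 ± 1.39 with adjusted p = 1 without the block) and by 4.45 ± 0.26 in col-106 (0.000567 with the block, and 4.36 ± 1.29 with adjusted p = 1 without).

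**Figure D5:**
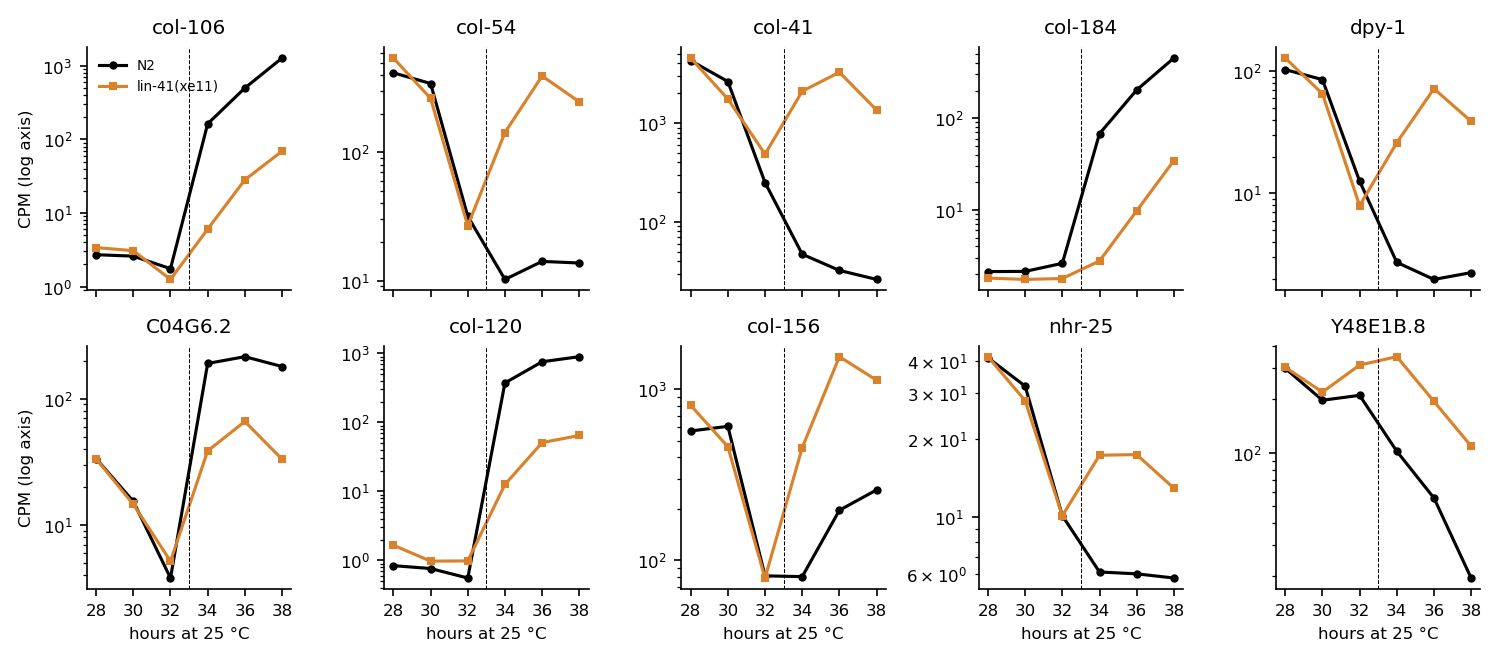
CPM (logarithmic axis) by hour in N2 (black) and lin-41(xe11) (orange) for the 10 genes whose step differed with the hour as a block, 1 library per point. The lines run close together to 32 h and part from 34 h, the boundary being the dashed line.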

How the data were processed

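Per the labels' protocols, ribosomal RNA was removed from whole-worm total RNA (Ribo-Zero) before library preparation (ScriptSeq v2). The deposited table holds whole-number read counts per gene; the aligner, the counting rule, its use of strand and the genome build are not given in the sources used here. A second deposited table holds log2 values, which in N2 were the log2 of the count scaled to a common total of 12.02 M plus a pseudocount of 8, checked against the counts. It served as an alternative.

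Genes were named from the reference table (18778 of 20182 IDs) and placed on chromosomes by ID in the Ensembl WBcel235 annotation (19513 IDs). The N2 counts of 28 to 38 h were scaled by library total, filtered at a mean of 1 CPM, and analysed with the quasi-likelihood functions glmQLFit and glmQLFTest of edgeR 4.0.16 (R 4.3.3) with the window as the factor and 4 residual degrees of freedom. The common dispersion was 0.107. On simulated counts with 200 changed genes the steps recovered most of the changes made. Those counts were drawn with a smaller dispersion than the fitted one. The run therefore checks the code and cannot show how many real changes the fit finds. No pair of the 6 libraries was a duplicate. The difference between the N2 and lin-41(xe11) steps was fitted as an interaction over 12 libraries. Deviations of same-hour libraries from their group means correlated between the strains at every hour (r from 0.43 to 0.92 over genes), so the hours pair the libraries. Libraries held 12.59 to 15.48 M counts, and intervals and floors cover counting error only.

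Members and the 49 gene lists were chosen with earlier results of these data known; 9 listed genes were not matched. Named genes were the 10 largest called rises and 10 largest called falls (2-fold, no overlap, 10 CPM), up to 4 members with the smallest p and 2 with the highest mean CPM per list, and the strut, adult collagen, yolk and heterochronic lists; further called list members, most collagens among them, and other genes were named after their values were seen. Alternatives were TMM scaling, DESeq2 1.42.0, other filters, all 11 N2 libraries, a linear trend, limma 3.58.1 on the log2 values, and leaving libraries out.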

Additional observations from a re-analysis of the deposited data

Results flagged for a closer look

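The step from 28 to 32 h to 34 to 38 h differed between N2 and lin-41(xe11) for 10 genes in the fit that pairs the strains by hour, and for 0 of them without the pairing. Each value is the log2 step of N2 minus that of the mutant, with edgeR's adjusted p over 13361 genes. The N2 step was the more positive in col-106 (4.45 ± 0.26, adjusted p = 0.000567), col-184 (3.78 ± 0.32, 0.00355), C04G6.2 (2.2 ± 0.22, 0.00898) and col-120 (4.89 ± 0.5, 0.0102). It was the more negative in col-54 (-4.34 ± 0.28, 0.000755), col-41 (-5.79 ± 0.43, 0.00152), dpy-1 (-4.36 ± 0.41, 0.00686), col-156 (-2.52 ± 0.27, 0.0104), nhr-25 (-1.46 ± 0.17, 0.0203) and Y48E1B.8 (-1.76 ± 0.21, 0.0256). Each of the 10 differences kept its direction in the fit without the pairing and in DESeq2. The genes were picked on these same libraries, so this is no independent support. DESeq2 called col-41, col-120 and col-60, of which col-60 was not among the 10 (blocked edgeR adjusted p = 0.119). In lin-41(xe11) the step itself was -0.01 for col-41, -0.09 for col-54, -0.56 for dpy-1 and 1.22 for col-156.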

How the results depend on the processing

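The N2 step had 976 called genes, 459 up and 517 down, and 166 called members of the lists. TMM scaling gave 854, 435, 419 and 153, no filter on low counts 734, 397, 337 and 134, and a mean of at least 5 CPM 936, 360, 576 and 165. Other fits called more, 3378 genes with DESeq2 (2067 up, 1311 down, 456 in lists), 3845 with all 11 N2 libraries (1783, 2062 and 500), 2673 without the 32 h and 34 h libraries together (1712, 961 and 358), 2898 with a linear trend over the hours (1722, 1176 and 357) and 3039 with limma on the deposited log2 values (1728, 1311 and 404). The cause of each shift was not tested. Of the 976 called genes DESeq2 also called 973, all 11 libraries 935, limma 976 and the trend 677.

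Leaving out 1 library gave 0 to 3183 called genes, 0 to 1898 up, 0 to 1285 down and 0 to 404 in lists. Of 240 genes followed singly, which include those with a fold change in the text, 0 changed direction under these alternatives. They were picked for a call or at least a 2-fold change in these same libraries, so this is no independent support. No paired analysis was possible for the N2 step, because its windows share no hours. Replicate numbers only order the hours within a window, and the labels do not link libraries across windows. For the difference between the N2 and lin-41(xe11) steps, the fit without the replicate block called 0 genes, the replicate block of hours 10 and DESeq2 3. TMM scaling, the stricter filter and each of the 12 fits without 1 library called 0, all without the block. The blocked fit was not repeated under these settings, so they do not show how stable its 10 genes are. Depth ran from 12.59 to 15.48 M counts, and a gene under about 1 CPM rests on few counts in a library.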
